A study of Mus musculus with 18 samples.

Results

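Type I interferon-stimulated genes are described here across wild-type (WT) and Klf3 knockout (KO) macrophages. The set is 39 mouse genes chosen by name, and a gene counted as measured where a probe set carried its symbol and no other. Where several probe sets did, the one brightest on average across the arrays stood for the gene. This gave 35 of the 39 genes, out of 17097 genes measured in the same way. No probe set carried the symbol Isg15, Oas1a, Bst2 or Ifi44 alone, and these 4 genes are not analysed here.

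The cells were bone marrow-derived macrophages of male FVB/NJ mice, 10 to 14 weeks old, grown for 7 to 10 days with M-CSF from L929-conditioned medium. Both genotypes were harvested at 0 h, right after a change to regular medium without that supplement, or 8 h later with the PBS vehicle or with lipopolysaccharide (LPS) at 100 ng/mL. Each of the 6 groups (WT 0 h, KO 0 h, WT vehicle, KO vehicle, WT LPS and KO LPS) holds 3 samples, and each sample was read on 1 array of an Affymetrix HT MG-430PM plate. The labels give the KO only as "Klf3 KO", without the deleted part of the gene or a cell type in which it was deleted, and do not say whether a replicate is an animal or a culture of its own. The p-values therefore cover only the variation among the samples at hand, which may be technical.

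LPS is an outer membrane component of Gram-negative bacteria that macrophages sense through TLR4. One branch below that receptor, through the adaptor TRIF and the factor IRF3, switches on interferon beta. Secreted interferon then acts back on the cells through the receptor IFNAR, and a complex that holds STAT2 and IRF9 binds the interferon-stimulated response element (ISRE) in front of antiviral genes. The products block virus at many steps: IFIT proteins bind viral RNA, OAS enzymes activate RNase L, Mx GTPases trap viral particles, and RIG-I-like receptors detect viral RNA. KLF3 is a zinc finger protein, known mainly as a repressor, that binds CACCC motifs.

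Promoter windows from RefSeq, on GRCm38.p6 (the C57BL/6J reference, not the FVB/NJ genome), were searched on both strands for the ISRE core, taken as GAAA, any 2 bases and GAAA again. A window runs from 250 bases before to 50 bases after a gene's start, 300 bases in all. A window was listed for 30 of the 39 genes and for 26 of the 35 measured ones. The ISRE core was in a window of 12 of those 26 genes (46.2%), against 3.99% of all 27025 genes with a window. The CACCC motif was in 18 of the 26 (69.2%), against 59.8% of all genes, and the STAT dimer motif TTCNNNGAA was in 6 of the 26 (23.1%), against 9.55%. Matches of the ISRE core may overlap each other, and a match describes letters, not a bound site. 6 windows are shown 5′ to 3′ on the gene's own strand, with ISRE matches in capitals. Ifit1, Ifit3 and Rsad2 were among the genes with the most negative KO minus WT differences at 0 h, Oasl1 had the highest LPS change of the 35, Trim21 was the 1 gene past the threshold between genotypes, and Trim25 did not pass the threshold for LPS in either genotype.
Ifit1, chr19:34640639-34640938, plus strand: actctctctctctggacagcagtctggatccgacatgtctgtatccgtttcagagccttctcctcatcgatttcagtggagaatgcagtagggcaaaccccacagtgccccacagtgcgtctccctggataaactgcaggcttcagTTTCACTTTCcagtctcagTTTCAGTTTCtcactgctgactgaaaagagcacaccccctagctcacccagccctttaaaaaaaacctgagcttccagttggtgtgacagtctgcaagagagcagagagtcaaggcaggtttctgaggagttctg
Ifit3, chr19:34583279-34583578, plus strand: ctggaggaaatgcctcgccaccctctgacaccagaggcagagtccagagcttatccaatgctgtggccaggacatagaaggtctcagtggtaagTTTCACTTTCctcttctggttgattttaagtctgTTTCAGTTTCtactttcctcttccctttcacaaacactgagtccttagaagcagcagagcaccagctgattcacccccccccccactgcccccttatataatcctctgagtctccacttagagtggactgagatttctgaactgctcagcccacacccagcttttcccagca
Rsad2, chr12:26456403-26456702, minus strand: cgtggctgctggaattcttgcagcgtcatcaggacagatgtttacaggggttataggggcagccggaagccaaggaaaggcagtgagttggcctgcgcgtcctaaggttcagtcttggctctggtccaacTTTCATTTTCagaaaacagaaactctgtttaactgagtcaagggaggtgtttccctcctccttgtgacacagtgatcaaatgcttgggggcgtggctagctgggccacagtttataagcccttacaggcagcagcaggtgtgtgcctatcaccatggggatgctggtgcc
Oasl1, chr5:114922990-114923289, plus strand: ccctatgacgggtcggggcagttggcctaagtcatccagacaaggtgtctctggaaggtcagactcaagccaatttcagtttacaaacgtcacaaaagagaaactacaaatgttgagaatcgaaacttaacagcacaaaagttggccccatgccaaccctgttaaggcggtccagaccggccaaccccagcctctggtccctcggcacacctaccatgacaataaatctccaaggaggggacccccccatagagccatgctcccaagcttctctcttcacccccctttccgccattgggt
Trim21, chr7:102565433-102565732, minus strand: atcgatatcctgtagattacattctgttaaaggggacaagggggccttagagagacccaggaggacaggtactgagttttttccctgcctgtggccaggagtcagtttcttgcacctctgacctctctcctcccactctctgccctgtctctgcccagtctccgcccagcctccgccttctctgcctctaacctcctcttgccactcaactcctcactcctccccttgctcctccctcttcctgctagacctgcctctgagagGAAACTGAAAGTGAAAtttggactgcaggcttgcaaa
Trim25, chr11:88999153-88999452, plus strand: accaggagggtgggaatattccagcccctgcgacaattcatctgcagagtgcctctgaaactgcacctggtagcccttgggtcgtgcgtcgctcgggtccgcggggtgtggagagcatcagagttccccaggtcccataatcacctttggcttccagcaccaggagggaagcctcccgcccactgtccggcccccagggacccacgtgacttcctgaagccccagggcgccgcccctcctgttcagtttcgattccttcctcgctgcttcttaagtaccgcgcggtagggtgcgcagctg

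The Ifit1 window holds 2 matches, which begin 104 and 85 bases before the start, and the Ifit3 window holds 2 more, 156 and 122 bases before it. Rsad2 has 1 match, 120 bases before the start. The 2 matches of Trim21 overlap and lie just after the start, and the windows of Oasl1 and Trim25 hold none. The LPS change in WT cells had a median of 2.35 (log2) over the 12 measured genes with a match and 2.62 over the 14 without. The ranges overlapped, at 0.36 to 4.98 with a match and -0.01 to 6.09 without. The KO minus WT difference at 0 h had a median of -0.52 over the 12 with a match and -0.47 over the 14 without. Ifit2, which had the most negative difference at 0 h, and Oasl2 had no match in any listed window.

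Klf3 itself, on the probe set that stood for it, ranged from 8.20 to 9.46 (log2 intensity) over the 9 WT arrays, while the 9 KO arrays ranged from 6.08 to 7.45. The genotypes did not overlap in any condition, but the position of this probe set against the deletion is not given in the labels. In limma its KO minus WT difference was -1.18 ± 0.29 at 0 h (adjusted p = 0.185), -1.92 ± 0.29 after vehicle (0.0529) and -2.28 ± 0.29 after LPS (0.000187). Of these only the last passed the threshold of 0.05. All 8 measured macrophage markers lay above the nonspecific control level (the 95th percentile of 23 control probe sets on the same array) in every array, and the 4 conventional dendritic cell and 5 fibroblast markers measured lay above it in none. The 35 interferon-stimulated genes lay above that level in all 18 arrays. An RNA quality measure, the 5′ minus the 3′ Gapdh control signal (log2), had a mean at 0 h of 0.12 ± 0.02 for WT and 0.09 ± 0.07 for KO, -0.18 ± 0.10 and -0.21 ± 0.09 after vehicle, and -0.44 ± 0.34 and -0.47 ± 0.08 after LPS (SD, n = 3 arrays each). The 2 arrays that were most often the highest of their group over the 35 genes, chosen after their values were seen, are referred to as the arrays that stood apart. Leaving out an array chosen in this way lowers the mean of its group for most of these genes. It also tends to lower the spread in the fit. WT LPS replicate 1 was the highest of its group for 31 of the 35 genes, with a median of 0.40 above the group mean (log2), and KO vehicle replicate 1 was the highest for 34, with a median of 0.35. The median over all genes was 0.01 and -0.01 in these arrays. Next came WT 0 h replicate 1, the highest for 29 genes (median 0.23), and WT vehicle replicate 1, the highest for 25 (median 0.17).

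**Figure D1:**
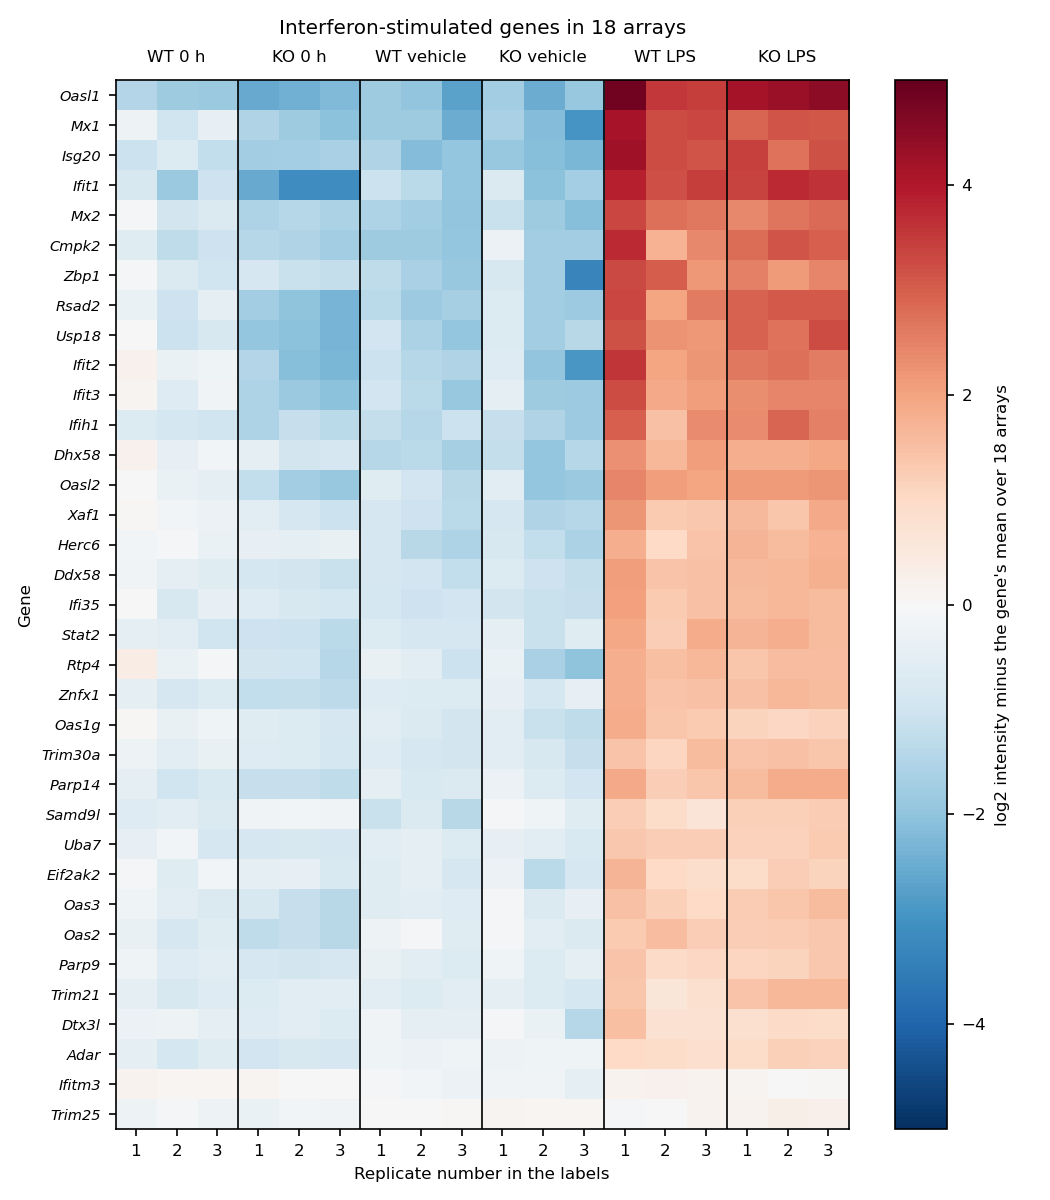
Each row is 1 of 35 interferon-stimulated genes, ordered by LPS change in WT, and each column 1 of 18 arrays; colour gives the log2 intensity minus the gene's mean over the 18 arrays. The 6 LPS arrays at the right lie above the others for all genes but Ifitm3 and Trim25, and the 3 KO arrays at 0 h lie below the WT arrays at 0 h for 26 genes.

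LPS raised nearly the whole set in both genotypes. In WT cells 34 of the 35 genes rose against vehicle and none fell, with a median log2 change of 2.57 (5.92-fold), where 13.7% of all genes rose, 18.7% fell and the median over all genes was -0.01. In KO cells 34 also rose and none fell, with a median of 2.69 (6.43-fold), where 13.9% of all genes rose and 20.6% fell. The change was at least 2-fold in 33 genes in WT and in 33 in KO (5.24% and 5.69% of all genes). LPS and vehicle arrays did not overlap for 34 genes in WT (18.4% of all genes were higher without overlap) and for 35 in KO (19.2%). In bulk RNA like this, fewer responding cells and less RNA per cell cannot be told apart. The Gapdh measure also moved from vehicle to LPS, and its part in these changes was not tested.

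The RNA-binding IFIT proteins were among the strongly induced genes. Ifit1 had log2 intensities of 6.80, 6.54 and 5.95 in the WT vehicle arrays and 11.77, 11.11 and 11.34 in the WT LPS arrays. In KO cells it went from 7.17, 5.82 and 6.17 to 11.28, 11.61 and 11.51. The 2 treatments were far apart in both genotypes, and the log2 change was 4.98 ± 0.33 (SE) in WT and 5.08 ± 0.33 in KO. Ifit2 rose by 3.90 ± 0.45 and 4.49 ± 0.45, and Ifit3 by 3.82 ± 0.37 and 3.75 ± 0.37.

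Of the 35 genes the 3 with the largest change in WT cells belong to different antiviral classes. Oasl1, an OAS-like protein that restrains translation of Irf7, was at 5.02, 4.81 and 4.11 in WT vehicle arrays and at 11.63, 10.34 and 10.25 in WT LPS arrays. In KO cells it was at 5.04, 4.33 and 4.88 with vehicle and at 10.97, 11.11 and 11.29 with LPS. The change was 6.09 ± 0.31 in WT (68.2-fold, adjusted p = 3.52e-10) and 6.37 ± 0.31 in KO (82.9-fold, adjusted p = 1.62e-10). Mx1, a GTPase that blocks influenza virus, was at 5.73, 5.74 and 5.02 with vehicle and 11.65, 10.77 and 10.84 with LPS in WT cells. KO cells had 5.89, 5.34 and 4.55 with vehicle and 10.41, 10.65 and 10.61 with LPS. The Mx1 change was 5.59 ± 0.32 in WT and 5.30 ± 0.32 in KO, and its LPS arrays lay above all vehicle arrays in both. Isg20, an RNA exonuclease, was at 5.29, 4.63 and 4.88 with vehicle and 11.02, 10.05 and 9.93 with LPS in WT cells, and at 4.91, 4.66 and 4.52 with vehicle and 10.22, 9.51 and 10.00 with LPS in KO cells. Its change was 5.40 ± 0.26 in WT and 5.21 ± 0.26 in KO.

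The other Mx gene, Mx2, rose by 4.64 ± 0.25 in WT and 4.30 ± 0.25 in KO. All 5 measured OAS family genes rose in both genotypes, and below Oasl1 came Oasl2 (3.14 in WT and 3.60 in KO), Oas1g (2.23 and 2.08), Oas3 (1.84 and 1.82) and Oas2 (1.68 and 1.74). Oas1g has near-identical copies in the mouse genome, so its signal may include theirs. In the ISG15 system, a ubiquitin-like tag and its enzymes, the deconjugating protease Usp18 rose by 4.02 in WT and 4.25 in KO, the ligase Herc6 by 2.67 and 2.88, and the activating enzyme Uba7 by 1.86 and 1.79.

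All 7 nucleic acid sensors and RNA-binding proteins rose. The receptors of the RIG-I family were Ifih1, which encodes MDA5 (3.50 in WT and 4.09 in KO), Dhx58, which encodes LGP2 (3.48 and 3.37) and Ddx58, which encodes RIG-I (2.66 and 2.65). Zbp1, a sensor of Z-form nucleic acid, rose by 4.42 and 4.31, the helicase gene Znfx1 by 2.25 and 2.15, and Eif2ak2, the kinase PKR, by 1.86 and 1.92. Adar, the RNA-editing enzyme that restrains MDA5, had one of the 3 smallest changes. Its WT arrays were at 7.88, 7.80 and 7.88 with vehicle and 9.09, 9.01 and 8.96 with LPS, and its KO arrays at 7.86, 7.88 and 7.89 with vehicle and 9.01, 9.31 and 9.25 with LPS. These narrow groups did not overlap, and the change was 1.17 ± 0.11 in WT and 1.32 ± 0.11 in KO.

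The 8 measured genes of the remaining effectors also rose. Cmpk2 (4.46 in WT and 4.25 in KO) and Rsad2 (4.24 and 4.45), neighbours on chromosome 12, encode a nucleotide kinase and viperin, which makes a chain-terminating nucleotide. Xaf1 rose by 2.69 and 2.90, Ifi35 by 2.56 and 2.69, Rtp4 by 2.33 and 2.81 and Samd9l was 4.05-fold higher in WT and 2.84-fold higher in KO. Ifitm3, which blocks viral entry at membranes, was already bright, at 12.42, 12.35 and 12.19 in WT vehicle arrays, and went to 12.66, 12.72 and 12.66 with LPS. Its KO arrays went from 12.30, 12.30 and 12.06 to 12.62, 12.53 and 12.56. The change was 0.36 ± 0.10 in WT and 0.35 ± 0.10 in KO. It did not pass the threshold without WT vehicle replicate 3 (0.30, adjusted p = 0.0651) or without KO vehicle replicate 3 (0.26, adjusted p = 0.0692).

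Of the 6 TRIM, PARP and DTX genes, 5 rose in each genotype. They were Trim30a (2.15 in WT and 2.26 in KO), Parp14 (2.15 and 2.41), Parp9 (1.66 and 1.65), the Parp9 partner Dtx3l (1.37 and 1.51) and Trim21 (1.53 and 2.29), an antibody receptor and ubiquitin ligase of the cytosol. Trim25, the ubiquitin ligase that acts with RIG-I, was at 10.37, 10.37 and 10.40 with vehicle and 10.26, 10.32 and 10.54 with LPS in WT cells, and at 10.48, 10.45 and 10.44 against 10.54, 10.65 and 10.59 in KO cells. Its change was -0.01 ± 0.10 in WT (adjusted p = 0.973) and 0.14 ± 0.10 in KO (adjusted p = 0.35), and with arrays shifted to the same median the KO change was 0.56 (adjusted p = 0.00746). Stat2, the signalling subunit of the complex that binds the ISRE, rose by 2.47 in WT and 2.43 in KO.

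**Figure D2:**
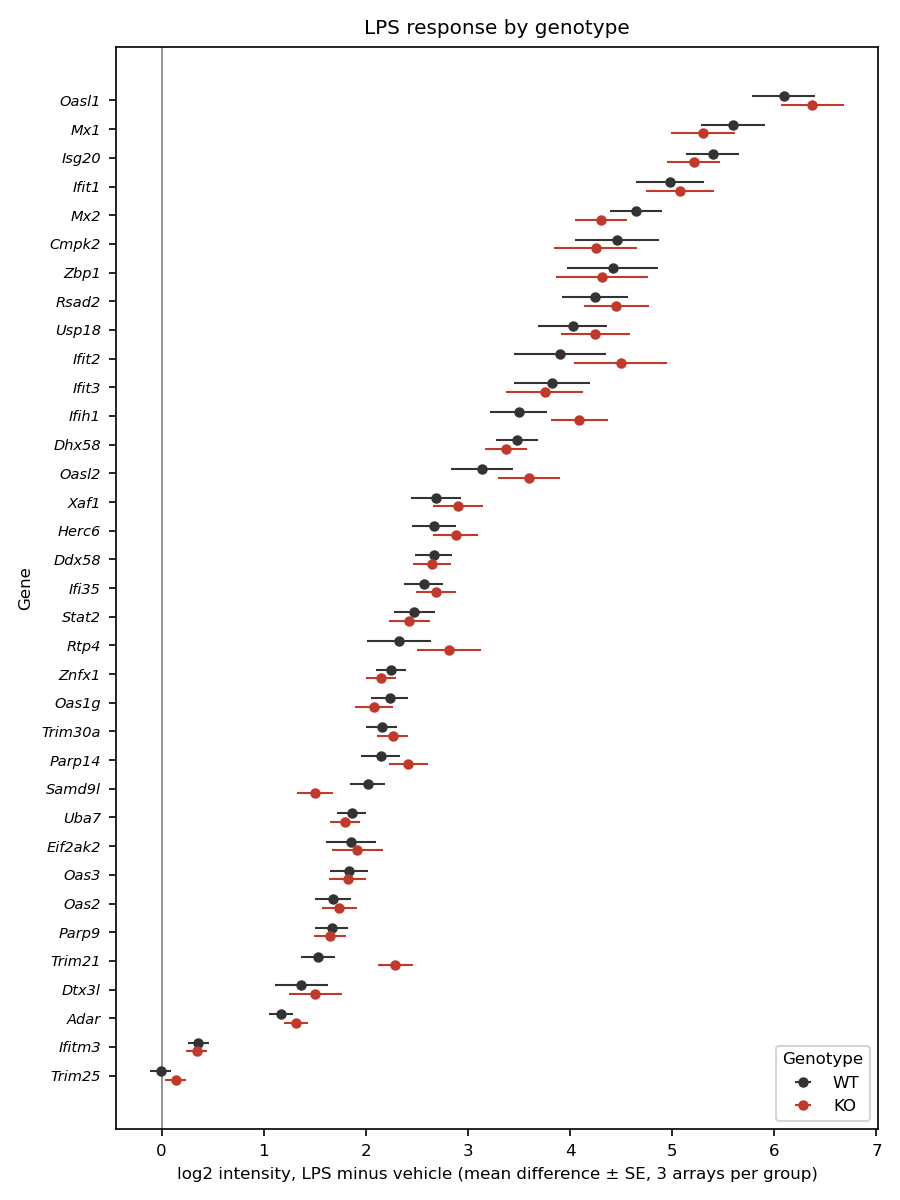
Points give the log2 intensity difference between LPS and vehicle for each of 35 genes (black WT, red KO), and bars the SE of the fit with 3 arrays per group. The points of both genotypes lie close together from Oasl1 (6.09 and 6.37) down to Trim25 (-0.01 and 0.14).

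For LPS against vehicle, the probe sets of a gene shared 1 direction. 13 of the 35 genes had more than 1 probe set with that single symbol, 31 in all, and for all 13 every probe set was above 0 in both LPS comparisons. The size differed most for Dhx58 in WT, where its probe sets spanned 2.23 log2 units. The other comparisons were less uniform. The probe sets shared a direction in 12 of the 13 genes for KO against WT at 0 h, in 5 after vehicle and in 6 after LPS, and for vehicle against 0 h in 10 in WT and 9 in KO.

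Whether the genotype altered this response was tested as the difference between the LPS changes, KO minus WT. None of the 35 genes passed the threshold in limma (1.11% of all genes did), 19 differences were above 0 and 16 below, and 1 gene had an unadjusted p below 0.05 (12.1% of all genes did). The median was 0.07 (log2), and with single arrays left out it ran from -0.03 to 0.26. Without KO vehicle replicate 1 it was 0.26, with 31 differences above 0 and 4 unadjusted p below 0.05, and without WT LPS replicate 1 it was 0.20, with 30 above 0 and 3 such p. Without both of these arrays, which stood apart, it was 0.42, with 34 above 0, 13 such p and 2 genes past the threshold (2.32% of all genes). Because each was chosen as an array high in its group, leaving either out raises this difference by construction. No conclusion is drawn from those values. The 95% confidence interval of the difference lay within 1 log2 unit of 0 for 20 of the genes, and the intervals ran from -1.45 to 1.95 over the set, so for the other 15 a 2-fold difference lay inside the interval.

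The 3 largest genotype differences were those of Trim21, Ifih1 and Ifit2. Trim21 was at 7.70, 7.57 and 7.67 with vehicle and 9.64, 8.84 and 9.06 with LPS in WT cells, and at 7.75, 7.56 and 7.35 with vehicle and 9.68, 9.92 and 9.92 with LPS in KO cells. The vehicle groups overlapped and the LPS groups did not. The difference in response was 0.76 ± 0.24 (adjusted p = 0.177). It passed without WT LPS replicate 1, the array that stood apart (0.98, adjusted p = 0.011, where 2.91% of all genes passed). It also passed with arrays weighted by their quality (0.85, adjusted p = 0.042, where 2.04% did). WT LPS replicate 1 had the highest Trim21 value of its group, so leaving it out raises this difference by construction. No conclusion is drawn from that pass. Ifih1 was at 6.86, 6.62 and 6.96 with vehicle and 11.02, 9.51 and 10.40 with LPS in WT cells, and at 6.88, 6.54 and 6.22 against 10.41, 10.94 and 10.57 in KO cells. The groups of both genotypes overlapped, and the difference in response was 0.60 ± 0.40 (adjusted p = 0.599). Ifit2 was at 7.55, 7.23 and 7.14 with vehicle and 12.19, 10.60 and 10.84 with LPS in WT cells, and at 8.00, 6.66 and 5.74 against 11.27, 11.41 and 11.21 in KO cells. Its highest values in WT LPS and in KO vehicle were those of the arrays that stood apart. The difference was 0.59 ± 0.64 (adjusted p = 0.782) and, with both of those arrays left out, 1.68 ± 0.39 (adjusted p = 0.039). The choice of those arrays by itself raises the second value.

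After LPS, KO minus WT had a median of 0.02 (log2), with 20 genes above 0 and 15 below. Without WT LPS replicate 1 the median was 0.21, with 25 genes above 0 and 8 unadjusted p below 0.05 in place of 2. That array was chosen as high in its group, so leaving it out raises these differences by construction for most of the genes. Without WT LPS replicate 2 the median was -0.08, with 25 below 0. Trim21 alone passed the threshold, among the 35 (5.97% of all genes passed, 2.82% as higher in KO). Its level was 1.58-fold higher in KO, a log2 difference of 0.66 ± 0.17 (adjusted p = 0.0294). That call was lost without WT LPS replicate 2 (0.49, adjusted p = 0.128), WT LPS replicate 3 (0.60, 0.0735), KO LPS replicate 2 (0.62, 0.102) or KO LPS replicate 3 (0.62, 0.0962), and also in a fit of the 2 groups alone (adjusted p = 0.302), with arrays shifted to the same median (0.86, 0.0585) and with the mean of its probe sets (0.66, 0.0712). Without WT LPS replicate 1, the highest WT LPS array for Oasl1, Oasl1 passed as well (0.83 ± 0.24, adjusted p = 0.0473), where 8.76% of all genes passed. No conclusion is drawn from that pass. Mx1 (-0.53 ± 0.32), Oas1g (-0.42 ± 0.19) and Ifitm3 (-0.12 ± 0.10) had all KO arrays below all WT arrays (10.1% of all genes did) without passing.

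After vehicle, no gene of the set and none of all 17097 genes (0%) passed for KO against WT, and 1 of the 35 had an unadjusted p below 0.05 (4.55% of all genes). Klf3 itself did not pass here, so a count of 0 does not show that no gene differed. The median was -0.04, with 19 genes below 0, and without KO vehicle replicate 1 it was -0.18, with 29 below 0 and 6 unadjusted p below 0.05. That array was chosen as high in its group, so leaving it out lowers these differences by construction for most of the genes. Without KO vehicle replicate 3 the median was 0.06, with 24 above 0. The gene with an unadjusted p below 0.05 in the fit of all arrays was Samd9l, a growth-restraining antiviral factor. Its log2 intensity was 9.16, 9.53 and 8.85 in WT and 10.19, 10.05 and 9.65 in KO vehicle arrays, without overlap, a difference of 0.78 ± 0.17 (adjusted p = 0.281). It was also higher in every KO array at 0 h, at 10.08, 10.11 and 10.09 against 9.60, 9.69 and 9.55 in WT (0.48 ± 0.17, adjusted p = 0.596). After LPS the groups met, at 11.49, 11.18 and 10.91 in WT and 11.45, 11.45 and 11.50 in KO.

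In untreated cells at 0 h, KO minus WT lay below 0 for 33 of the 35 genes, with a median of -0.55 (1.46-fold lower in KO), where 49% of all genes lay below 0 and the median over all genes was 0.00. All 3 KO arrays lay below all 3 WT arrays for 26 genes (7.02% of all genes were lower without overlap) and above them for 1, Samd9l (7.55%). No gene of the set passed the adjusted threshold in limma (0.14% of all genes did). An unadjusted p below 0.05 was found for 24 of the 35 (68.6%), against 6.22% of all genes. The 35 genes were read on the same arrays and can move together in 1 array. These counts are therefore descriptive and are not 35 independent results. With single arrays left out the median ran from -0.64 to -0.42 and the count of unadjusted p below 0.05 from 16 to 22. The median of -0.42 and the count of 16 came without WT 0 h replicate 1, the highest array of its group for 29 of the 35 genes.

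The largest differences at 0 h, named here after their values were seen, were those of the 3 IFIT genes. Ifit2 was at 8.86, 8.32 and 8.43 in WT and 7.18, 6.51 and 6.34 in KO arrays. Ifit1 was at 7.07, 6.02 and 6.85 in WT and 5.36, 4.76 and 4.77 in KO arrays. Ifit3 was at 8.56, 7.79 and 8.26 in WT and 6.86, 6.55 and 6.35 in KO arrays. The genotypes did not overlap for any of them. Ifit2 was 3.63-fold lower in KO (-1.86 ± 0.45, adjusted p = 0.176), Ifit1 3.21-fold (-1.68 ± 0.33, adjusted p = 0.0637) and Ifit3 3.06-fold (-1.62 ± 0.37, adjusted p = 0.136). None of these passed the threshold, which Ifit1 did without WT 0 h replicate 2 (adjusted p = 0.0337).

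Other effectors, also named after their values were seen, lay lower in the KO cells at 0 h in the same way. Usp18 was at 8.07, 7.01 and 7.28 in WT and 6.15, 6.02 and 5.78 in KO arrays (-1.47 ± 0.33, adjusted p = 0.126). Rsad2 was at 9.10, 8.38 and 8.95 against 7.67, 7.42 and 7.08 (-1.42 ± 0.32, adjusted p = 0.125). Oasl2 was at 8.76, 8.37 and 8.26 against 7.49, 6.99 and 6.84 (-1.36 ± 0.30, adjusted p = 0.125). In each the lowest WT array was above the highest KO array by more than the spread of the KO arrays. Mx1 differed by -1.22 ± 0.32, Rtp4 by -1.11 ± 0.32 and Mx2 by -0.94 ± 0.25, and all 3 were also apart. The 7 nucleic acid sensors and RNA-binding proteins all lay below 0, between -0.63 for Dhx58 and -0.20 for Adar, as did the 5 OAS family genes, from -1.36 for Oasl2 to -0.53 for Oas1g. The smallest differences below 0 were -0.08 for Ifitm3 and -0.03 for Trim25, and Trim21 lay at 0.05.

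How many genes of the set passed at 0 h moved with the analysis. With arrays weighted by their quality 9 passed, all lower in KO (Ifit1, Ifit2, Ifit3, Mx1, Mx2, Oasl2, Rsad2, Usp18 and Znfx1), where 0.643% of all genes passed. With the 2 arrays that stood apart in other groups left out 7 did, where 0.252% of all genes passed. That setting leaves the 0 h means unchanged and alters only the spread in the fit. The choice of arrays tends to lower that spread. The median difference was -0.57 and -0.55 under these settings. Within the plate columns, each of which held 1 WT and 1 KO array at 0 h, the median difference was -0.75, -0.38 and -0.48, and 29 of the 35 genes were lower in KO in all 3 columns. The Gapdh measure at 0 h was 0.13, 0.12 and 0.10 in the WT arrays and 0.12, 0.15 and 0.01 in the KO arrays. The last of these, KO 0 h replicate 3, was the lowest of its group for 23 of the 35 genes. The part of RNA quality in the 0 h difference was not tested. Plasmacytoid dendritic cells make much interferon, and 3 of their 5 measured markers lay above the nonspecific level in no 0 h array. The summed intensities of the 5 were 343 to 473 in WT and 394 to 525 in KO arrays, most of it from Tcf4. The part of such cells in the 0 h difference was not tested.

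**Figure D3:**
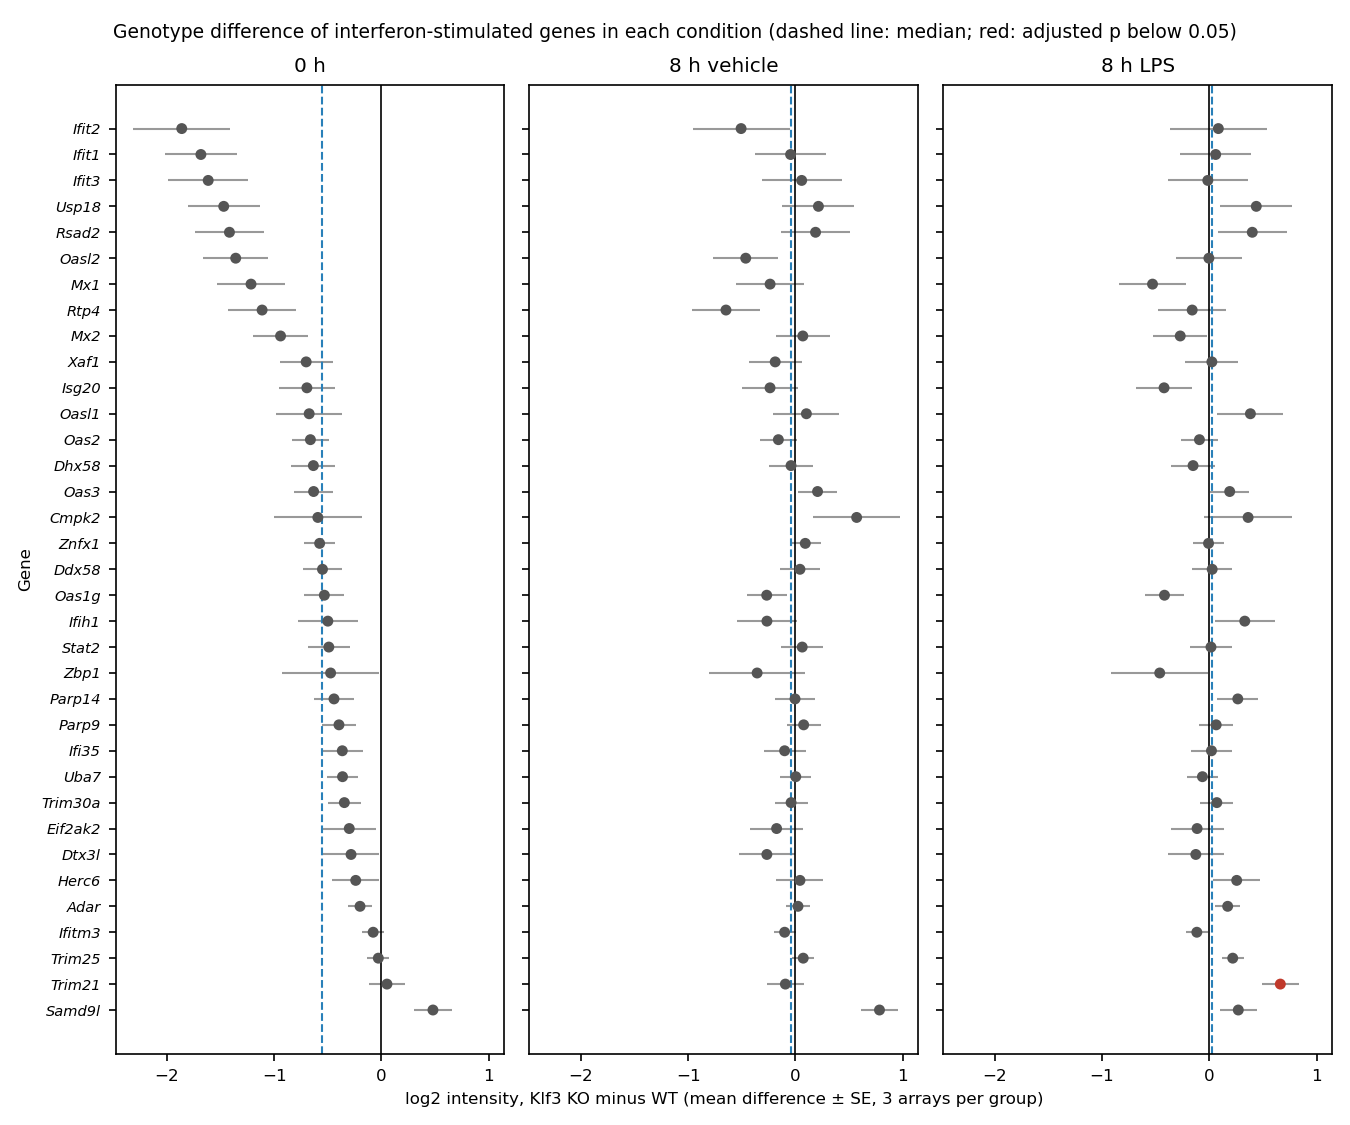
Points give the log2 intensity difference between KO and WT for 35 genes at 0 h, after vehicle and after LPS, and bars the SE of the fit with 3 arrays per group; the dashed line is the median and red marks an adjusted p below 0.05. The median is -0.55 at 0 h, -0.04 after vehicle and 0.02 after LPS, and Trim21 after LPS is the red point.

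Genes with a larger LPS change tended to have a more negative KO minus WT difference at 0 h. Over the 35 genes the 0 h difference and the LPS change in WT, which share no array, correlated with a Pearson r of -0.62 and a Spearman rho of -0.73. This is across genes that share the arrays' labelling and normalization, and genes are not independent replicates.

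The set was also compared between 8 h of vehicle, after the change of medium, and 0 h. Against 0 h, 8 genes fell and 1 rose in WT cells (7.01% and 7.16% of all genes), with a median of -0.44. In KO cells 3 fell and 5 rose (5.79% and 6.76% of all genes), with a median of 0.00. These comparisons share the 0 h arrays with the genotype comparison above and are not independent of it.

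Of the 8 genes that fell in WT cells, Mx1, Dhx58 and Ifit3 had the largest changes, while Ifit2, at -1.23 ± 0.45, did not pass (adjusted p = 0.0859). Mx1 went from 7.25, 6.52 and 7.11 to 5.73, 5.74 and 5.02, a change of -1.46 ± 0.32 (adjusted p = 0.00464). Dhx58 went from 8.38, 7.74 and 8.00 to 6.73, 6.81 and 6.48, a change of -1.37 ± 0.21 (adjusted p = 0.000341). The changes of its probe sets spanned 2.22 log2 units here, so the size depends on the probe set. Ifit3 went from 8.56, 7.79 and 8.26 to 7.45, 7.06 and 6.51, a change of -1.20 ± 0.37 (adjusted p = 0.0417). In all 3 the vehicle arrays lay below every 0 h array. Mx2 (-1.17), Herc6 (-1.07), Xaf1 (-0.95), Isg20 (-0.88) and Ddx58 (-0.59) fell as well. Adar was the 1 gene that rose, from 7.62, 7.25 and 7.49 to 7.88, 7.80 and 7.88 (0.40 ± 0.11, adjusted p = 0.0264). The number that passed was 5 without WT 0 h replicate 1 (9.67% of all genes) and 4 without WT vehicle replicate 3 (9.45%), in place of 9 (14.2%).

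In KO cells Ifit1 rose from 5.36, 4.76 and 4.77 to 7.17, 5.82 and 6.17, a change of 1.42 ± 0.33 (adjusted p = 0.00939). Without KO vehicle replicate 1, the array that stood apart, it was 1.03 (adjusted p = 0.0535). Oas2 rose from 7.45, 7.55 and 7.30 to 8.63, 8.13 and 7.97 (0.81 ± 0.17), and Oas3 from 6.86, 6.51 and 6.27 to 7.57, 6.95 and 7.25 (0.71 ± 0.18). Their KO vehicle arrays lay above every KO 0 h array. Znfx1 (0.67) and Adar (0.62) rose too. Herc6 went from 6.49, 6.44 and 6.56 to 6.12, 5.68 and 5.32 (-0.79 ± 0.22), Dhx58 from 7.67, 7.24 and 7.31 to 6.95, 6.22 and 6.73 (-0.77 ± 0.21) and Ifitm3 from 12.63, 12.51 and 12.50 to 12.30, 12.30 and 12.06 (-0.33 ± 0.10). All 3 fell without overlap, and the changes of the Dhx58 probe sets spanned 1.41 log2 units. The number that passed was 5 without any 1 of the KO 0 h arrays (7.32% to 10.1% of all genes) or without KO vehicle replicate 2 (7.81%), in place of 8 (12.5%). The median was -0.22 without KO vehicle replicate 1, 0.27 without KO vehicle replicate 3 and -0.20 with arrays shifted to the same median. Leaving out KO vehicle replicate 1, chosen as high in its group, lowers these changes by construction for most of the genes.

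The genotype difference in this change (KO minus WT) was above 0 for 33 of the 35 genes, with a median of 0.47, and was highest for Usp18 (1.69 ± 0.47), Ifit3 (1.67 ± 0.53), Ifit1 (1.64 ± 0.47) and Rsad2 (1.61 ± 0.46). None of the 35 and none of all 17097 genes passed in limma (0%, adjusted p = 0.9995 for each of these 4), and 9 of the 35 had an unadjusted p below 0.05 (3.67% of all genes). Of the 4 groups without LPS, WT 0 h had the highest mean for 26 of the 35 genes, and the lowest mean was in KO 0 h for 16, in KO vehicle for 14 and in WT vehicle for 5.

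**Figure D4:**
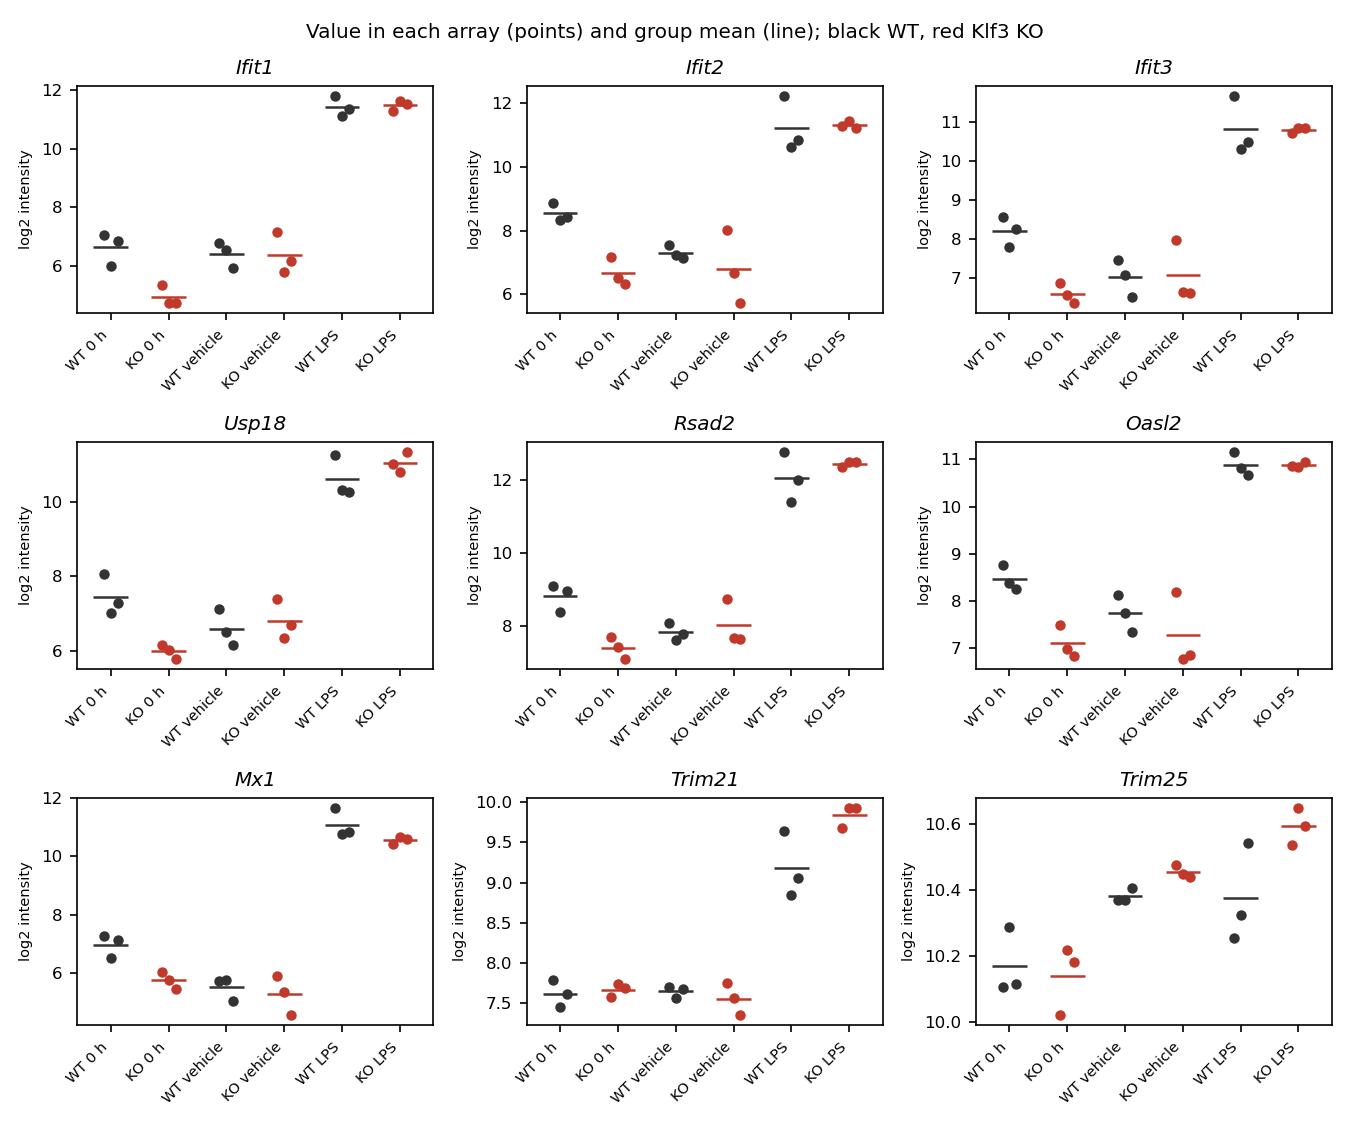
Log2 intensity of 9 genes in each array (points) with the group mean (line), black for WT and red for KO. For Ifit1, Ifit2, Ifit3, Usp18, Rsad2, Oasl2 and Mx1 the KO points at 0 h lie below the WT points, and after LPS the genotypes overlap for the first 6; Trim21 is higher in KO after LPS and Trim25 stays between 10.02 and 10.65.

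Averaged over the 3 conditions, KO minus WT had a median of -0.16 and lay below 0 for 30 of the 35 genes. It was -0.07, with 22 below 0, without WT replicate 1 and -0.27 without WT replicate 2. No gene of the set passed in limma (0.368% of all genes did), and 10 had an unadjusted p below 0.05 (10.2% of all genes), or 4 to 14 with single replicates left out, the 4 without KO replicate 3. The lowest adjusted p was 0.134, for Samd9l, which was higher in KO by 0.51 ± 0.11.

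The genes that make and relay the interferon signal were read from 3 further lists. Of 17 interferon ligands 11 were measured, and none lay above the nonspecific level in all arrays of any group. Ifna7 was called higher with LPS in both genotypes (adjusted p = 0.0033 in WT and 0.00251 in KO), and Ifnb1, the interferon beta gene, in KO (adjusted p = 0.00269) and not in WT (adjusted p = 0.393). No vehicle array showed either gene above the nonspecific level. Of the LPS arrays, 1 in each genotype showed Ifna7 above it, and 1 in KO and none in WT showed Ifnb1, so no size is given for these changes. The Ifnb1 responses of the genotypes did not differ past the threshold (adjusted p = 0.403).

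Of the 14 genes that lead from TLR4 and cytosolic sensors to interferon, 12 were measured. With LPS 7 rose and 2 fell in WT (13.7% and 18.7% of all genes), and 7 rose and 2 fell in KO (13.9% and 20.6%). Irf7, the factor that amplifies interferon production, rose by 3.99 ± 0.28 and 4.04 ± 0.28, the kinase genes Ikbke by 1.67 and 1.36 and Tbk1 by 0.84 and 0.84. Ticam1, which encodes TRIF, rose by 0.90 and 1.54, while Tlr4 fell by 1.11 and 0.58 and Sting1, the adaptor of cytosolic DNA sensing, by 1.61 and 2.91. After LPS KO differed from WT for Sting1 (-1.41 ± 0.29, adjusted p = 0.00811) and Ticam1 (0.53 ± 0.13, adjusted p = 0.0231). Without WT LPS replicate 1 the Sting1 difference was -0.90 ± 0.15 (adjusted p = 0.0022). Ticam1 did not pass without WT LPS replicate 2 (adjusted p = 0.102) or without any 1 of the KO LPS arrays (0.0545 to 0.0684), its difference was 0.88 (adjusted p = 0.0209) with the deposited values unscaled, and neither gene passed in a fit of the 2 groups alone (0.2334 and 0.2395).

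The list of interferon receptors and their signalling had 17 measured genes. With LPS 11 rose and 3 fell in WT (13.7% and 18.7% of all genes), and 10 rose and 4 fell in KO (13.9% and 20.6%). The feedback inhibitor Socs3 rose by 6.80 in WT and 6.23 in KO and the kinase gene Jak2 by 2.99 and 2.97. Socs1, another feedback inhibitor, was above the nonspecific level in 1 of 3 WT vehicle arrays and in no KO vehicle array, and in KO cells it was at least 30.4-fold higher with LPS, taking the nonspecific level as the floor (adjusted p = 4.7e-08). Irf9, the DNA-binding partner of STAT2, rose by 0.64 and 0.72. After LPS 4 genes were lower in KO (3.15% of all genes were) and none higher. They were the interferon gamma receptor gene Ifngr1 (-0.77 ± 0.13), Irf8 (-0.77 ± 0.14), Irf2 (-0.57 ± 0.16) and Ifnar2, a subunit of the type I receptor (-0.50 ± 0.10). None of the 4 passed in a fit of the 2 groups alone (adjusted p from 0.0885 to 0.324), and none with the deposited values unscaled, where Ifnar2 was at -0.23, Irf2 at -0.26, Irf8 at -0.49 and Ifngr1 at -0.49. With arrays shifted to the same median Ifnar2 (adjusted p = 0.144) and Irf2 (0.114) did not pass, and Irf2 also did not pass without WT LPS replicate 2 or 3 or without any 1 of the KO LPS arrays (adjusted p from 0.0835 to 0.166), or with the plate column as a block (0.0644). At 0 h no gene of the 3 lists passed between genotypes. Their medians were -0.01 for the ligands, -0.04 for induction and 0.02 for receptor signalling, beside -0.55 for the interferon-stimulated genes, and Irf7 was at -0.72 ± 0.28 (adjusted p = 0.683). The 11 measured ligands lay above the nonspecific level in no 0 h array, so their median cannot show whether interferon transcripts differed.

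No marker of another cell type passed between genotypes at 0 h. None of the 6 neutrophil, 4 conventional dendritic cell or 5 fibroblast markers lay above the nonspecific level in any 0 h array, and 7 of 8 T and NK cell markers in each genotype lay above it in none. Of the 3 B cell markers measured, Cd79b was above it in 2 WT and 3 KO arrays at 0 h, with a KO minus WT difference of 0.50 ± 0.26 (adjusted p = 0.897), and the other two in none. With LPS the summed intensity of the neutrophil list went from 61.5 to 92.8 with vehicle up to 487 to 827 in WT, and from 67.6 to 77.2 up to 419 to 596 in KO, with 2 of the 6 genes above the level, S100a8 and Camp. After LPS S100a8 was lower in KO (-1.28 ± 0.31, adjusted p = 0.02). It did not pass without WT LPS replicate 2 (adjusted p = 0.09235) or KO LPS replicate 3 (0.09625), with arrays weighted by quality (0.0545) or with the 2 groups alone (0.132). Of the 8 macrophage markers, Fcgr1 (-1.29 ± 0.28, adjusted p = 0.0118) and Itgam (-0.82 ± 0.23, 0.0436) were also lower in KO after LPS. Neither passed without KO LPS replicate 2 (0.0622 and 0.19), with unscaled values or with the 2 groups alone. Itgam also did not pass without WT LPS replicate 1 (0.0975) or 2 (0.151) or with arrays shifted to the same median (0.171). The same held with array weights (0.0948) and with the plate column as a block (0.0606). The plasmacytoid dendritic cell list had 1 gene that rose in each genotype, Ccr9, which was above the level in no vehicle array and was at least 2.93-fold higher with LPS in WT and 3.27-fold in KO, while the summed intensity of that list was 434 to 609 with vehicle and 375 to 485 with LPS in WT, and 447 to 588 and 422 to 491 in KO. Tcf4 made up most of the plasmacytoid dendritic cell sum in every array. The part of these markers in the LPS changes was not tested.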

How the data were processed

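Total RNA was labelled with a 3′ IVT kit and read on 1 array per sample (18 arrays, 6 groups of 3). The authors deposited 1 intensity per probe set and array on a linear scale, produced in Partek according to the submitters' processing notes. Its version, and how background and scaling were handled, is not given in the sources used here. Because array distributions differed, log2 was taken and the 45141 probe sets were quantile-normalized. Of 45037 probe sets without controls, 28898 carried 1 gene symbol, 551 several and 15588 none listed. The brightest stood for each of 17097 genes. A 6-group model was fitted to all genes with limma 3.58.1 in R 4.3.3. Tests are two-sided, with Benjamini-Hochberg adjustment over all genes and a threshold of 0.05. Errors of differences are SE. For the mean over conditions, same-numbered arrays within a genotype were averaged first. For arrays, their number limits the precision. Per-array values are given for the 3 genes with the largest and the 3 with the smallest LPS change in WT, the 3 with the largest genotype difference in that change, those past the threshold between genotypes, and up to 3 per direction past it for vehicle against 0 h. Per-array values of Ifit1 for LPS, of Samd9l and of the genes shown for KO against WT at 0 h fall outside these rules. They were given with the values known. Members and lists were chosen with earlier results of these data known. The fit was tested on simulated data. Alternatives were other scalings, filters, probe set rules, blocks, array weights, fits and left-out arrays. Plate rows each held 1 condition, so row and condition cannot be told apart.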

Additional observations from a re-analysis of the deposited data

How the results depend on the processing

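The number of genes that rose with LPS, 34 in each genotype, was 33 to 34 in WT and 33 to 35 in KO over all settings. All genes past the threshold in either direction ran from 23.8% to 56.1% in WT and from 27.8% to 58.1% in KO. Percentages in brackets below give the share of all genes past the threshold, in either direction, in the same setting. Genotype counts were less stable, and the cause was not tested. For the difference in LPS response, 0 genes passed (1.11%), and 1 with array weights (2.04%). It was 2 with both arrays that stood apart left out (2.32%, chosen after seeing the data) and 0 to 1 with single arrays left out (0.684% to 2.91%). For KO against WT at 0 h, 0 passed (0.14%). Arrays shifted to the same median, deposited values unscaled, values raised to the nonspecific level and a fit of the compared groups each gave 1 (0.111% to 0.263%). Array weights gave 9 (0.643%), both arrays left out 7 (0.252%) and single arrays 0 to 1 (0.0292% to 0.152%). After vehicle array weights gave 1 (0.216%) in place of 0 (0%). After LPS the 1 gene (5.97%) became 0 with the same median (4.38%), with the mean of all probe sets (5.91%) and with the compared groups alone (0.521%). It became 3 with both arrays left out (8.16%) and 0 to 2 with single arrays (3.59% to 8.76%). For vehicle against 0 h in WT, 9 (14.2%) became 19 with array weights (22.8%), 17 with both arrays left out (17.3%) and 4 to 8 with single arrays (9.45% to 12.1%). In KO, 8 (5 higher, 3 lower, 12.5%) became 4 with the same median (13.9%) and with unscaled values (10.3%), 1 higher and 3 lower in each. It became 5 with the compared groups alone (11.9%) and 5 to 7 with single arrays (7.32% to 12.6%). Over the 3 conditions, values raised to the nonspecific level gave 2 (1.35%) in place of 0 (0.368%). With unscaled values the median of all genes was -0.44 for LPS in WT and 0.44 for the genotype difference in response, where the 35 genes' median was 0.59 and all 35 lay above 0. Same-numbered arrays of a genotype also shared a plate column. They correlated weakly in their deviations (r from -0.05 to 0.14, over 0.1 in 2 of 18 pairs). Their median r was 0.04, against -0.025 for differently numbered arrays of a genotype. These correlations cannot show whether same-numbered samples share an animal or culture. A fixed replicate block gave 6 genes at 0 h (0.187%) and 15 for vehicle against 0 h in WT (13.8%). A random replicate block gave 0 (0.146%) and 10 (14.6%), and neither block changed another count by over 1.5 times. No single gene's call reversed.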
